A study of Mus musculus with 8 samples.

Results

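Protein kinase A, its inhibitor Pkig and some of its anchoring proteins were followed here at the transcript level in mouse brown fat with and without adenylyl cyclase 3 in adipocytes. The members are 10 of the 54385 genes in the deposited count table, taken by name: the catalytic subunit genes Prkaca and Prkacb, the regulatory subunit genes Prkar1a, Prkar1b, Prkar2a and Prkar2b, the inhibitor gene Pkig, and the anchor genes Akap1, Akap12 and Akap13. Each was matched to its Ensembl identifier through its GRCm38 symbol, and all 10 passed the filter on low counts that left 14553 genes for testing. The cKO group held 4 libraries from mice with both Adcy3 alleles floxed and a Cre recombinase under the adiponectin (Adipoq) promoter, and the WT group held 4 libraries from mice with the same floxed alleles, 3 of them without the Cre. The WT library numbered 4 is titled a control, although its genotype entry lists the Cre. All mice were C57BL/6N, 20 weeks old and on chow. The tissue is interscapular brown fat by the sample labels, which were followed, although the series' design text has inguinal. Adipoq-Cre acts in adipocytes, so other cells of the tissue keep their Adcy3.

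Adenylyl cyclases make cyclic AMP, and protein kinase A is its main receptor in fat cells. In the resting enzyme a dimer of regulatory subunits holds a pair of catalytic subunits inactive, and cyclic AMP bound to the regulatory subunits lets the catalytic subunits go. In brown fat the freed kinase drives lipolysis and heat production. Anchoring proteins tie the regulatory subunits to mitochondria, membranes or the cytoskeleton, and the regulatory isoform decides which anchors are used and how much cyclic AMP is needed. The RIIβ subunit, the product of Prkar2b, is known as the main regulatory subunit of mouse adipose tissue, and in mice that lack it the RIα subunit, from Prkar1a, takes its place in brown fat.

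The isoforms differ at the short site with which an inhibitory protein fills the active cleft of the kinase, and this site is shown for each regulatory subunit and for Pkig because the shares of these isoforms are compared below. The 5 stretches are coding sequence of GENCODE M21 transcripts, 24 bases each, 5′ to 3′, with capitals on the codons of the arginine pair and on the codon at the place where a substrate carries its phosphate acceptor.
Prkar1a: cgacggCGCCGAggtGCTatcagt
Prkar1b: cgtcgcCGGCGGggcGGTgtgagt
Prkar2a: tttactAGACGAgtaTCAgtctgt
Prkar2b: ttcacaAGGCGTgccTCGgtctgt
Pkig: acaggcCGTCGGaatGCAgtccct
The type II subunits carry a serine codon there and are phosphorylated by the kinase, whereas the type I subunits and Pkig carry an alanine or glycine codon and act as pseudosubstrates. The windows of Prkar2a and Prkar2b were identical at 70.8% of bases and those of Prkar1a and Prkar1b at 66.7%, against 37.5% to 41.7% between a type I and a type II window. On GRCm38 the Prkar1a window is chr11:109660101-109660124 on the plus strand and the Prkar1b window chr5:139108529-139108552 on the minus strand. The Prkar2a window, chr9:108714290-108716867 on the plus strand, and the Prkar2b window, chr12:31993779-32038640 on the minus strand, each span the intron between exons 2 and 3. The Pkig window is chr2:163721199-163721222 on the plus strand.

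The catalytic genes are close copies of each other, with 80.2% of 1053 aligned coding bases identical, and the activation loop is shown because it is the part both need to become active. Its 33 bases are given with capitals on the threonine codon whose phosphorylation makes the kinase active.
Prkaca: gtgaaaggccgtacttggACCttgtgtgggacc
Prkacb: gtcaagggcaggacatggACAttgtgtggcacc
These windows, chr8:83990669-83990701 on the plus strand and chr3:146746636-146746668 on the minus strand, were identical at 78.8% of bases. Over whole transcripts, however, Prkaca shared 2.97% of its 31-base sequences with other genes, mainly the pseudogene Prkaca-ps1, and Prkacb shared 0.046%, all of it with Prkaca. Among the members Prkar1b shared most, with 8.27% of its sequences found in Gm15672, which overlaps it on the same strand, so its low counts are uncertain.

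Libraries held 10713043 to 32437214 estimated counts, and each member except Prkar1b and Pkig had at least 225 counts in every library. Adcy3 itself stood at 21.4 ± 3.03 TMM-scaled CPM (counts set relative to library size, not to gene length) in cKO and 103 ± 27.4 CPM in WT (SD, n = 4 each; log2 fold change -2.26, edgeR adjusted p = 0.000925), and the WT library that lists the Cre was at 118 CPM. All 7 brown adipocyte markers were detected in every library, and they summed to 5332 to 8121 CPM in cKO and 5848 to 6743 CPM in WT. By edgeR 0 of the 7 were called, 1 had an unadjusted p under 0.05 and 4 had a positive log2 fold change. Single markers went either way, with Ucp1 at 2341 to 4545 CPM in cKO and 2233 to 3012 CPM in WT. Cox8b stood at 250 to 430 CPM in cKO and 360 to 503 CPM in WT. WT replicate 3 stood apart, with 20.0% of the tested genes at their lowest and 20.9% at their highest of all 8 libraries. The 11 skeletal muscle markers, all detected in every library, spread far in either group and summed to 142 to 10407 CPM in cKO and 38.7 to 8182 CPM in WT, highest in cKO replicate 1 and WT replicate 4.

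None of the 10 members passed edgeR's quasi-likelihood test of cKO against WT over all 14553 genes, at a Benjamini-Hochberg adjusted p of 0.05 (lowest adjusted p of a member, 0.890). That test called 0.0687% of all genes. At an unadjusted p under 0.05, edgeR, DESeq2 and limma-voom also gave 0 members, while 5.60% of all genes reached that level by edgeR, and DESeq2, limma-voom and edgeR without a count filter called 0 members after adjustment. These called 0.270%, 0.0687% and 0.262% of all genes they tested. Fold changes of cKO over WT lay between 0.855 for Pkig and 1.17 for Prkar1a. On the log2 scale 7 members were positive and 3 negative, with a median of 0.09, and over all genes tested 51.8% were positive with a median of 0.01. The tissue was sampled in bulk, so fewer cells of a type and less RNA per cell cannot be told apart.

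**Figure D1:**
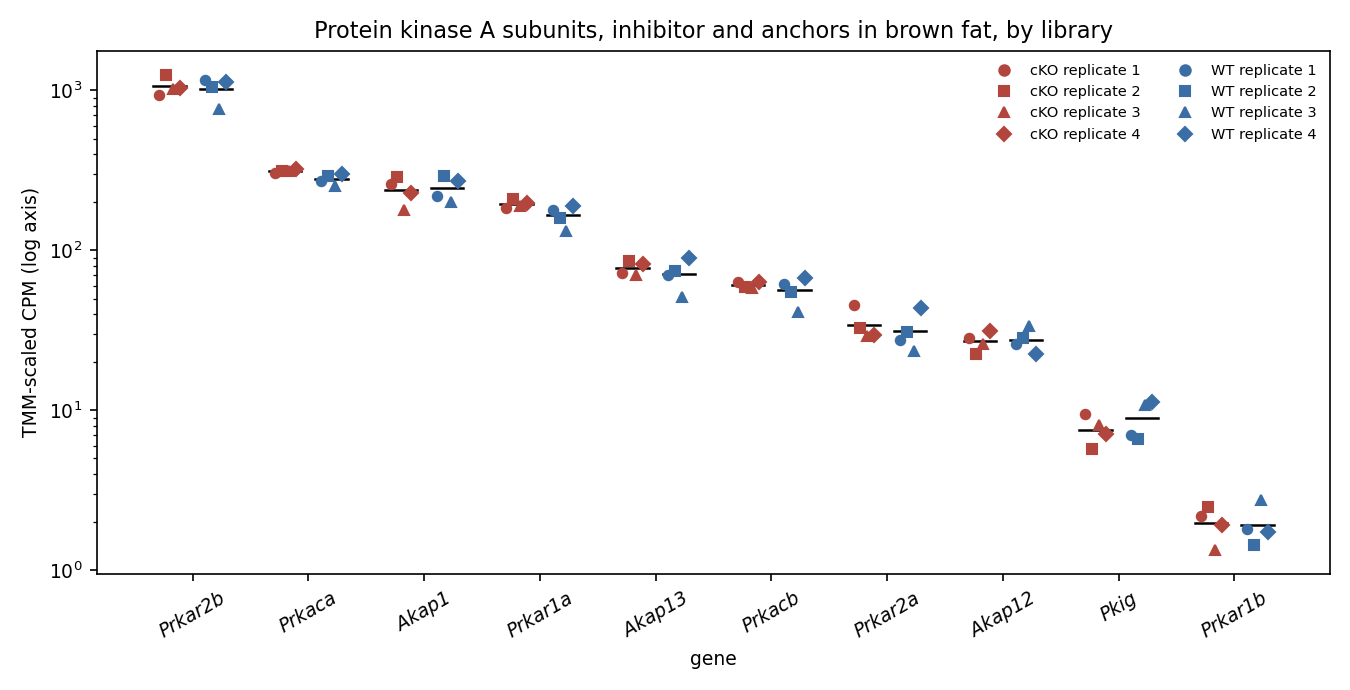
TMM-scaled CPM of the 10 members in each library on a log axis, ordered by mean, with cKO left of WT for each gene; points are libraries and black lines group means. Prkar2b is the most abundant in all 8 libraries and Prkar1b the least, and the groups overlap for every gene but Prkaca.

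Catalytic subunits. Prkaca (ENSMUSG00000005469, chr8:83972993-83996443, plus strand) encodes Cα, the chief catalytic subunit of most tissues. Its level was 305, 315, 313 and 323 CPM in cKO replicates 1 to 4, and 272, 292, 253 and 301 CPM in WT replicates 1 to 4. Every cKO library lay above every WT library, though the highest WT value came within 4 CPM of the lowest cKO value. Prkaca was the 1 member without overlap, a separation in that direction that 1.23% of all tested genes showed, and 3.50% in either direction. The fold change was 1.13 (95% interval 0.967 to 1.31; log2 fold change 0.17 ± 0.10 SE, edgeR adjusted p = 0.893). Its spread was small in cKO, at 2.42% of the mean, against 7.69% in WT. Leaving out any 1 library kept the log2 fold change between 0.13 and 0.22.

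Prkacb (ENSMUSG00000005034, chr3:146729574-146812990, minus strand) encodes Cβ. Its level was 63.2, 58.8, 58.5 and 63.8 CPM in cKO, and 61.5, 54.8, 41.4 and 67.4 CPM in WT. The cKO values all fell inside the WT range, which WT replicate 3 opened at the low end. Its log2 fold change was 0.12 (95% interval -0.18 to 0.42, edgeR adjusted p = 0.937), and 0.0011 without WT replicate 3.

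Regulatory subunits. Prkar2b (ENSMUSG00000002997, chr12:31958476-32061296, minus strand) was the most abundant member. It had 939.7, 1258, 1028 and 1039 CPM in cKO, and 1156, 1048, 767 and 1130 CPM in WT. cKO replicate 2 was the highest of all libraries and WT replicate 3 the lowest, and the 3 other WT libraries all lay above the 3 other cKO libraries. The groups thus overlapped, with a log2 fold change of 0.06 with a 95% interval of -0.26 to 0.38 (edgeR adjusted p = 0.977), and it was -0.06 without WT replicate 3 and -0.03 without cKO replicate 2. As a fold change, the interval with all 8 libraries ran from 0.833 to 1.30.

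Prkar1a (ENSMUSG00000020612, chr11:109649405-109669656, plus strand) encodes RIα, which needs less cyclic AMP than RIIβ to let the catalytic subunit go. It was measured at 184, 208, 189 and 197 CPM in cKO, and at 179, 160.2, 132 and 191 CPM in WT. Only WT replicate 4, the library whose genotype entry lists the Cre, reached into the cKO range. The log2 fold change was 0.23 ± 0.12 SE (95% interval -0.04 to 0.50, edgeR adjusted p = 0.890, unadjusted p = 0.0857), the highest of the 10 members. Without WT replicate 3 it was 0.14, and without WT replicate 4 it was 0.31 (edgeR adjusted p = 0.789).

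Prkar2a (ENSMUSG00000032601, chr9:108689314-108750436, plus strand) encodes RIIα, the type II subunit of heart and skeletal muscle among other tissues. It stood at 45.7, 32.8, 29.3 and 29.6 CPM in cKO, and at 27.3, 30.9, 23.6 and 43.7 CPM in WT. One library in each group was high, cKO replicate 1 and WT replicate 4, and these were also the libraries with the highest muscle marker sums, 10407 and 8182 CPM against 38.7 to 3034 CPM in the other 6. The part of muscle RNA in the Prkar2a level was not tested. Its fold change on the log2 scale was 0.13 (95% interval -0.32 to 0.58, edgeR adjusted p = 0.960), -0.03 without cKO replicate 1, 0.34 without WT replicate 4 and 0.17 without both. The log2 fold change was 0.41 (edgeR adjusted p = 0.688) when WT replicate 4 was placed with cKO by its genotype entry.

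Prkar1b (ENSMUSG00000025855, chr5:139017306-139150001, minus strand) encodes RIβ, a subunit best known from neurons. Its level was low, with 2.17, 2.50, 1.33 and 1.93 CPM in cKO, and 1.80, 1.43, 2.73 and 1.74 CPM in WT, from 20 to 58 counts per library. The groups overlapped over most of their ranges, and the 95% interval of the log2 fold change ran from -0.65 to 0.71 around 0.03 (edgeR adjusted p = 0.995), or from 0.636-fold to 1.63-fold. Its sign turned when any 1 of WT replicates 1, 2 and 4 or cKO replicates 1 and 2 was left out, with values down to -0.10.

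Because levels of different genes can be set side by side only per length, CPM was divided by the length of the longest coding transcript for the order and the isoform shares. Per kilobase the order over 8 libraries was Prkar2b with a mean of 309.6 CPM, Prkaca with 130.4, Akap1 with 64.4, Prkar1a with 51.2, Prkacb with 13.5, Pkig with 7.78, Prkar2a with 6.62, Akap13 with 5.90, Akap12 with 4.41 and Prkar1b with 0.741. Ranges over libraries were apart between Prkar2b and Prkaca, between Prkaca and Akap1, between Prkar1a and Prkacb and between Akap12 and Prkar1b. The ranges of all other neighbours overlapped, and Pkig exceeded Prkar2a in 5 of 8 libraries. Prkar2b lay at the 98.9th percentile of tested genes per length and Prkaca at the 97.4th. With merged exon or median transcript lengths the first 4 and the last place stayed, while members in places 5 to 9 traded ranks, Pkig lying between the 6th and 9th.

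Most catalytic transcripts per length were those of Prkaca in both groups, and protein was not measured. Prkaca made up 90.2%, 91.1%, 91.1% and 90.6% of catalytic transcripts in cKO, and 89.4%, 91.0%, 92.1% and 89.5% in WT. The cKO values lay within the WT range, and the means differed by 0.244 percentage points (95% interval -1.89 to 1.68, two-sided exact permutation p = 0.714, adjusted p = 0.886 over the 5 shares tested). The difference was -0.122 without WT replicate 1 and -0.0933 without WT replicate 4.

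Most regulatory transcripts per length were those of Prkar2b, and protein was not measured. Prkar2b took 81.7%, 84.8%, 83.5% and 83.1% of regulatory transcripts in cKO, and 85.7%, 85.6%, 83.9% and 84.0% in WT. Only cKO replicate 2 reached into the WT range. The mean was 83.3% ± 1.27 in cKO and 84.8% ± 0.967 in WT, a difference of -1.53 percentage points (95% interval -4.0 to 0.863, two-sided exact permutation p = 0.114, adjusted p = 0.286, n = 4 each). Prkar1a took 15.4%, 13.5%, 14.8% and 15.1% in cKO, and 12.8%, 12.6%, 13.9% and 13.6% in WT. Here too cKO replicate 2 alone overlapped the WT values, and the difference of 1.46 percentage points (95% interval -0.440 to 2.78) had a two-sided exact permutation p of 0.0857 and an adjusted p of 0.286. With 4 libraries against 4 the smallest two-sided exact permutation p is 0.0286, which after adjustment over 5 shares gives 0.143 when 1 share reaches it and 0.0714 when 2 do. The adjusted p of these shares could therefore hardly pass 0.05, and missing it says little. With 1 library left out the difference ran from -2.04 (without cKO replicate 2) to -1.01 (without cKO replicate 1) percentage points for Prkar2b, and from 1.23 to 1.86 for Prkar1a. With median transcript lengths the difference was -1.62 points for Prkar2b (exact permutation test, adjusted p = 0.914). For Prkar1a it was 1.28 points (exact permutation test, adjusted p = 0.286). The shares of one pool are parts of one whole, so the share of Prkar2b and that of Prkar1a are not independent results.

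Prkar2a took 1.86% ± 0.565 of regulatory transcripts in cKO and 1.77% ± 0.342 in WT, with 2.70% in cKO replicate 1 and 2.21% in WT replicate 4 as the high values. The difference was 0.0917 percentage points with all libraries, -0.190 without cKO replicate 1, -0.0374 without WT replicate 1, and -0.0412 without both muscle-rich libraries. Prkar1b took 0.198% ± 0.0437 in cKO and 0.217% ± 0.111 in WT, where WT replicate 3 alone reached 0.383%. Its difference was -0.0189 percentage points, 0.0363 without WT replicate 3 and 0.000994 without cKO replicate 3. Regulatory transcripts exceeded catalytic transcripts in every library, by 2.49 ± 0.271 times in cKO and 2.63 ± 0.308 times in WT per length, and this ratio was not tested. These ratios and shares depend on the length given to each gene. With median transcript lengths Prkar2b took 78.0% of the regulatory pool over all 8 libraries, and with merged exons 85.8%. Prkar2a took 8.86% with median transcript lengths against 1.81% with the longest coding transcript, and Prkar1b 0.592% against 0.208%. Prkaca took 94.7% of the catalytic pool with merged exons and 83.5% without division by length, against 90.6% with the longest coding transcript.

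**Figure D2:**
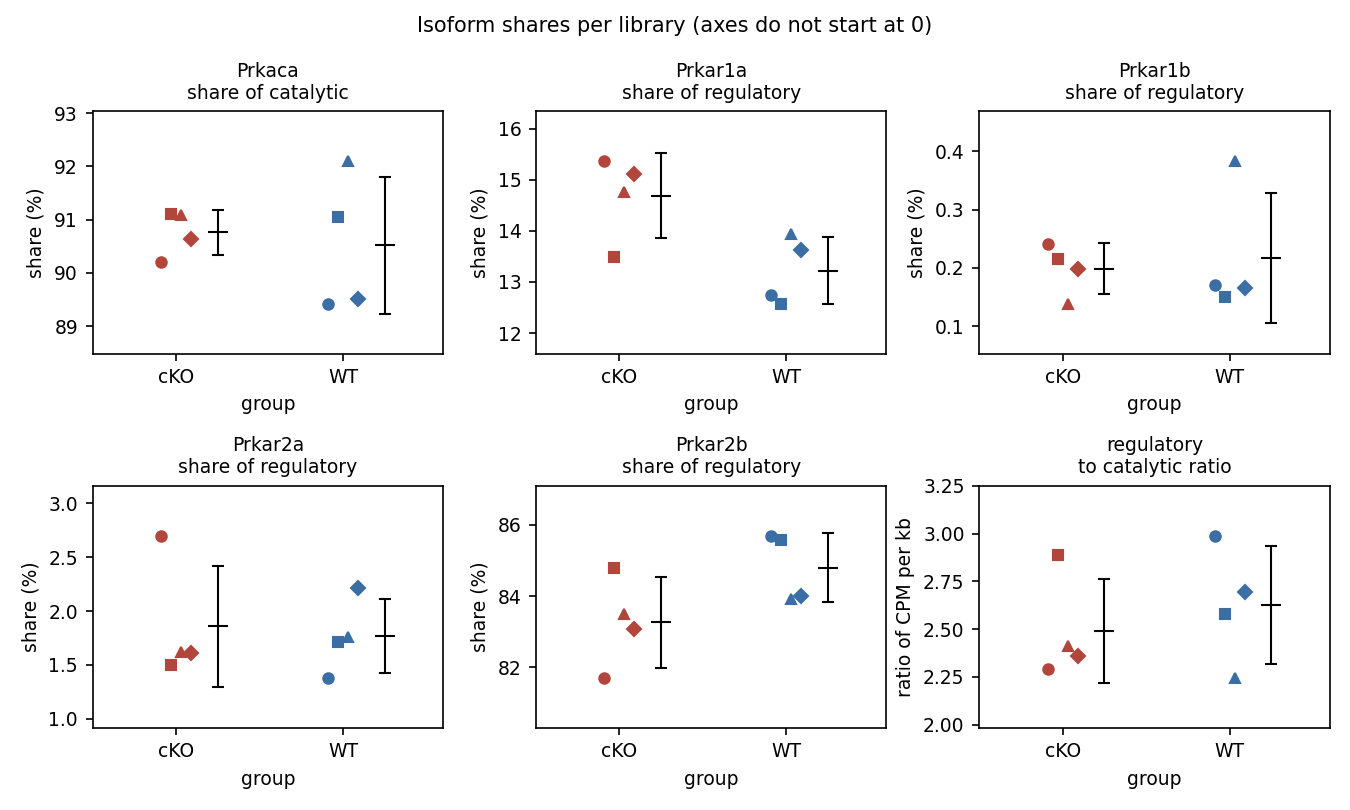
Share of each isoform in its pool in percent, and the ratio of regulatory to catalytic transcripts, from CPM per kilobase; coloured points are libraries (circle, square, triangle and diamond for replicates 1 to 4), and black marks are means with SD over 4 libraries. cKO replicate 2 is the 1 cKO library inside the WT range for Prkar1a and Prkar2b, and the vertical axes do not start at 0.

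Inhibitor. Pkig (ENSMUSG00000035268, chr2:163658386-163726158, plus strand) encodes PKIγ, a small heat-stable protein that blocks free catalytic subunits and carries them out of the nucleus. Its level was 9.42, 5.69, 8.06 and 7.13 CPM in cKO, and 7.06, 6.57, 10.7 and 11.2 CPM in WT. Values of the groups interleaved, and cKO replicate 2 was the lowest of all. The log2 fold change was -0.23 (95% interval -0.70 to 0.25, edgeR adjusted p = 0.922), the lowest of the members. It was -0.0854 without WT replicate 4, -0.115 without WT replicate 3 or without cKO replicate 2, and -0.338 without cKO replicate 1, and it became 0.04 when WT replicate 4 was placed with cKO by its genotype entry.

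Anchors. Akap1 (ENSMUSG00000018428, chr11:88830792-88864586, minus strand) encodes the anchor of the outer mitochondrial membrane. It had 259, 288, 179.6 and 229 CPM in cKO, and 218, 290.1, 201 and 271 CPM in WT, so that the ranges nearly coincided. On the log2 scale the fold change was -0.04 (95% interval -0.39 to 0.31, edgeR adjusted p = 0.985), and it was positive, up to 0.08, without WT replicate 2, WT replicate 4 or cKO replicate 3.

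Akap13 (ENSMUSG00000066406, chr7:75455534-75754609, plus strand) encodes another anchor of the kinase. It stood at 72.3, 85.8, 69.7 and 82.1 CPM in cKO, and at 70.3, 74.0, 51.3 and 89.2 CPM in WT. WT replicates 3 and 4 bracketed all other libraries, and the log2 fold change of 0.12 (95% interval -0.21 to 0.45, edgeR adjusted p = 0.944) was -0.0023 without WT replicate 3.

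Akap12 (ENSMUSG00000038587, chr10:4266380-4359470, plus strand) encodes gravin, an anchor at the plasma membrane. It was measured at 28.5, 22.5, 26.0 and 31.2 CPM in cKO, and at 26.0, 28.4, 33.5 and 22.5 CPM in WT. Like Prkar1b it was highest in WT replicate 3, where the 6 endothelial markers also had their highest sum, 665 CPM against 419 to 511 CPM in the other libraries. The 6 mural and smooth muscle markers had their highest sum there too, 527 CPM against 369 to 499 CPM. The part of endothelial or mural RNA in the Akap12 level was not tested. The log2 fold change was -0.03 (95% interval -0.34 to 0.28, edgeR adjusted p = 0.988), 0.08 without WT replicate 3 and 0.05 without cKO replicate 2.

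**Figure D3:**
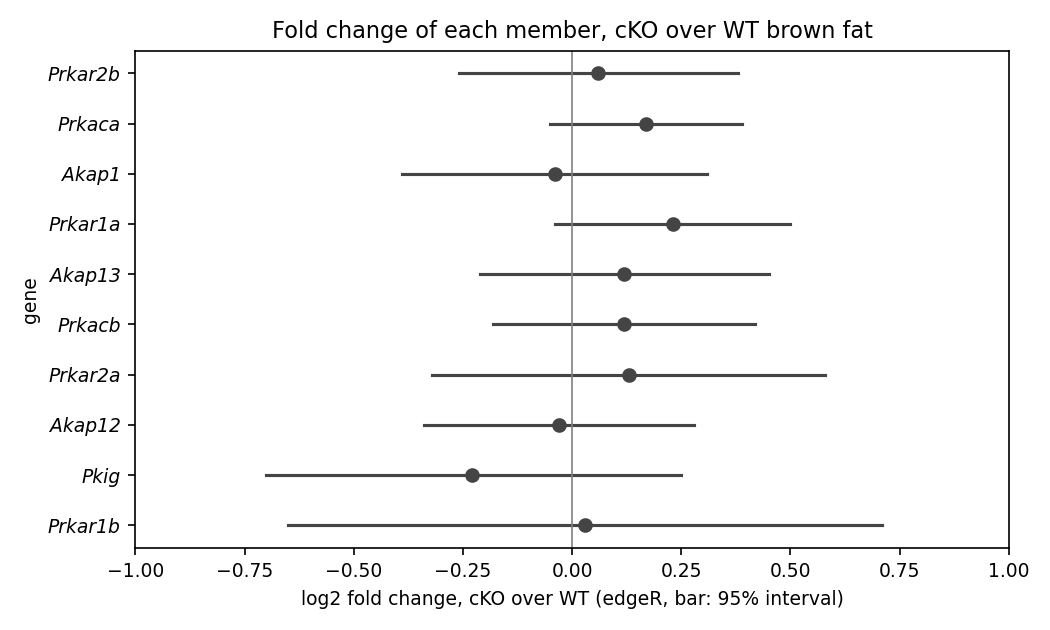
Log2 fold change of cKO over WT for each member with its 95% interval derived from the edgeR test, in order of mean CPM, not divided by length. Every interval includes 0, and the interval is widest for Prkar1b, at -0.65 to 0.71.

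WT replicate 3 was the lowest library for 6 of the 10 members, namely Prkaca, Prkacb, Prkar1a, Prkar2a, Prkar2b and Akap13, and the highest for Akap12 and Prkar1b. Of all tested genes 20.0% were lowest and 20.9% highest in this library. By likeness of log2 CPM over the 8 libraries, among 8027 genes with a mean of at least 10 CPM, Prkaca was most like mt-Nd2 (Pearson r = 0.973), mt-Nd4 (r = 0.963) and Wnt5a (r = 0.957). Prkar2b was most like Zfhx4 (r = 0.974), Sun2 (r = 0.973) and Hdac2 (r = 0.965). All of these points share the libraries and their scaling, and the genes are the closest of a long search, so they serve as a description.

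The other genes of the pathway were counted in 4 lists. Among other anchors 24 of 29 genes could be tested, and 0 were called in either direction, with 0 at an unadjusted p under 0.05 and a median log2 fold change of 0.08. Opa1, a mitochondrial fusion protein that also anchors the kinase to lipid droplets, had 203 ± 22.5 CPM in cKO and 173 ± 33.2 CPM in WT (log2 fold change 0.24, edgeR adjusted p = 0.896). Akap2 had 139.5 ± 4.54 CPM in cKO and 146 ± 13.2 CPM in WT, and the nuclear anchor Akap8 had 66.3 ± 9.57 CPM in cKO and 69.0 ± 7.63 CPM in WT. The locus of Akap2 also holds Palm2 and the joint gene Pakap, so the division of reads among these names is uncertain.

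All 6 other inhibitors, relatives and turnover factors were tested, with 0 called, 0 at an unadjusted p under 0.05 and a median of 0.06. Pdpk1, the kinase known to phosphorylate the activation loop of several kinases including this one, stood at 52.4 ± 8.12 CPM in cKO and 43.3 ± 8.94 CPM in WT (log2 fold change 0.27, edgeR adjusted p = 0.893). Pja2, a ubiquitin ligase that marks regulatory subunits for breakdown, stood at 66.9 ± 9.76 CPM in cKO and 57.9 ± 10.2 CPM in WT, and the ligase Stub1 at 47.5 ± 3.76 CPM in cKO and 50.8 ± 9.12 CPM in WT.

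Of 12 other cyclic AMP effectors 5 passed the count filter, 0 were called and 0 had an unadjusted p under 0.05. Rapgef3 and Rapgef4, exchange factors that cyclic AMP opens directly, had 26.9 ± 2.96 and 3.97 ± 1.49 CPM in cKO, and 31.6 ± 5.02 and 2.79 ± 0.845 CPM in WT (edgeR adjusted p = 0.890 and 0.894). The membrane protein Popdc2 had 10.6 ± 1.48 CPM in cKO and 8.57 ± 2.20 CPM in WT. The median of 0.30 over these 5 genes rests on few and mostly low transcripts.

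Among 15 tested substrates known from fat cells 0 were called, and the median was 0.02. Lipe, the hormone-sensitive lipase, and Plin1, the lipid droplet coat protein that the kinase phosphorylates, stood at 1193 ± 67.1 and 1114 ± 69.6 CPM in cKO, and at 1183 ± 177 and 1098 ± 136 CPM in WT. Pde3b, a phosphodiesterase that breaks cyclic AMP down, had 335 ± 41.8 CPM in cKO and 292 ± 68.1 CPM in WT (log2 fold change 0.20, edgeR adjusted p = 0.907). One of the 15, Bad, a cell death protein that the kinase phosphorylates, had an unadjusted p under 0.05, where 5.60% of all genes did. It had 14.0, 12.8, 18.4 and 12.8 CPM in cKO, and 16.9, 20.6, 22.7 and 18.3 CPM in WT. The groups overlapped through cKO replicate 3, and the log2 fold change of -0.44 (95% interval -0.77 to -0.11) did not pass the test over all genes (edgeR adjusted p = 0.882).

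Pkia, Cmya5 and Synm were highest in the libraries with the highest muscle marker sums. Pkia, the gene of an inhibitor abundant in skeletal muscle, had 63.6, 17.0, 3.05 and 9.95 CPM in cKO, and 1.77, 9.07, 3.13 and 46.2 CPM in WT. The highest values were again those of cKO replicate 1 and WT replicate 4, and the 8 libraries stood in the same order as by muscle sum. Cmya5, a muscle anchor, ran from 2.98 to 153 CPM in cKO and from 2.99 to 112 CPM in WT, and Synm, an intermediate filament anchor, from 15.2 to 98.9 CPM in cKO and from 19.2 to 77.2 CPM in WT. Synm did not follow the sums throughout, since WT replicate 1, with the lowest muscle sum, had 39.5 CPM of it, above 4 libraries with higher sums. These 3 genes were picked for this description after their values were seen, and the part of muscle RNA in their levels was not tested. Prkaca and Prkar2b lay within 253 to 323 CPM and 767 to 1258 CPM over libraries whose muscle sums ran from 38.7 to 10407 CPM. Among the members, 3 (Prkacb, Akap13 and Pkig) were highest in WT replicate 4 and 1 (Prkar2a) in cKO replicate 1. Of all tested genes 9.85% and 16.1% were highest in these libraries. The part of muscle RNA in the levels of the members was not tested.

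**Figure D4:**
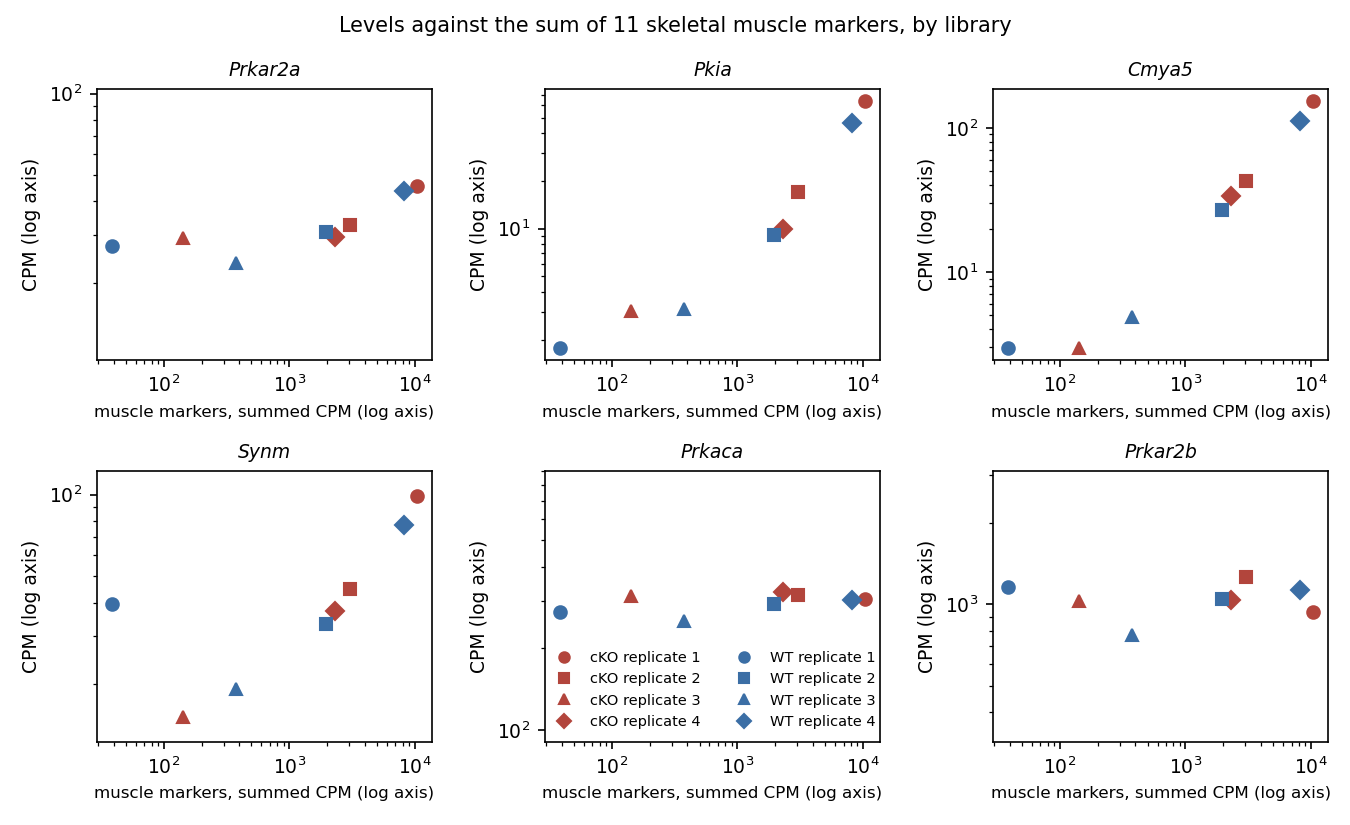
CPM of 6 genes against the summed CPM of 11 skeletal muscle markers, 1 point per library, both axes logarithmic. Pkia, Cmya5 and Synm are highest in cKO replicate 1 and WT replicate 4, the libraries with 10407 and 8182 CPM of muscle markers, and so is Prkar2a over a narrower range, whereas Prkaca and Prkar2b are not.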

How the data were processed

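Per the labels' protocols, total RNA of brown fat was made into paired-end libraries with a NEBNext Ultra II kit, and the design text speaks of polyA RNA. The 8 libraries, 4 per group, were grouped by title. The authors deposited 1 table of estimated counts per Ensembl gene. StringTie, Salmon and edgeR are named with build GRCm38 per the submitters' processing notes, and neither their versions and settings nor the annotation or strand use is stated in those sources. Estimated counts divide reads among transcripts that could have given them, so values of near copies depend on that division.

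GENCODE M21 named 54131 of 54385 identifiers (99.5%). Counts were rounded, filtered with filterByExpr, scaled by TMM and fitted in R 4.3.3 by the quasi-likelihood method of edgeR 4.0.16 with robust dispersions, p-values being adjusted over all genes. DESeq2 (1.42.0) and limma-voom (limma 3.58.1) were alternatives. Shares were compared with exact permutation tests over libraries (scipy 1.17.1), and their intervals hold the shifts that test does not refuse. The fit was tested on simulated data. The named genes are all members, Adcy3 and, per list, called genes, genes with an unadjusted p under 0.05 and the 3 most abundant per length; Pkia, Cmya5 and Synm were added after their values were seen. Members and lists were chosen with earlier results of these data known.

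The labels do not say that libraries came from separate animals, so p-values measure the spread between libraries, which may be technical. No pair of libraries within a group agreed within sampling noise (smallest chi-square per degree of freedom, 14.5). This cannot tell whether libraries came from separate animals, since separate preparations of one sample may also differ beyond that noise.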

Additional observations from a re-analysis of the deposited data

Results flagged for a closer look

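Each group of 4 libraries was examined for a library set apart from the others. Its gap to its nearest neighbour had to take up more of the group's range than Dixon's 95% critical value allows. Of 34 groups of values 3 held such a library, where chance gives about 1 in 20 groups. The groups are not independent, since the shares of one pool are parts of one whole. Adcy3 stood at 61.7 CPM in WT replicate 3, far below the other WT libraries at 112 to 118 CPM. The share of Prkar1b among regulatory transcripts was 0.383% in WT replicate 3, against 0.149% to 0.171% in the other WT libraries. The share of Prkar2a was 2.70% in cKO replicate 1, against 1.5% to 1.62% in the other cKO libraries, and that library also had the highest muscle marker sum, 10407 CPM. The part of muscle RNA in that share was not tested.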

How the results depend on the processing

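Over 18 alternatives edgeR, DESeq2 and limma-voom called 0 members and 0 genes of the 4 other lists, and the lowest adjusted p of a member was 0.625. Over all genes 10 were called, against 47 with DESeq2, 93 without a count filter, 1 with WT replicate 4 moved to cKO and 8 to 14 with 1 library left out. The sign of Prkaca, Prkacb and Prkar1a was the same in all 18. With WT replicate 4 moved, log2 fold changes were -0.0457 for Prkar1b, 0.0577 for Akap1 and 0.0432 for Pkig, and the Prkaca share differed by -0.344 percentage points. The same move kept the sign but gave 0.414 for Prkar2a (edgeR adjusted p = 0.688), 0.305 for Prkar1a, 0.296 for Akap13 and -0.156 for Akap12. By limma-voom Prkar1b was at -0.0075. Without WT replicate 4 and cKO replicate 1, a pair chosen after seeing the data, Prkar1b was at -0.0637 and the Prkar2a share differed by -0.0412. With 1 library or this pair left out, log2 fold changes ran from -0.0966 to 0.247 for Prkar1b, -0.0295 to 0.341 for Prkar2a, -0.0564 to 0.166 for Prkar2b, -0.14 to 0.0774 for Akap1, -0.132 to 0.0805 for Akap12, -0.00225 to 0.285 for Akap13 and -0.338 to -0.0854 for Pkig. Differences in shares ran from -0.122 to 0.771 points for Prkaca, -0.19 to 0.24 for Prkar2a and -0.0506 to 0.0363 for Prkar1b. The cause of these reversals was not tested, and each reversed value had an adjusted p above the threshold. With the replicate number as a block edgeR called 7 genes and 0 members, and Prkar1a was at 0.24 (adjusted p = 0.804). Same-numbered libraries did not all deviate together, nor did every library correlate best with its own number (correlations -0.464, 0.035, 0.409 and 0.002), so the numbers are not taken as pairs. Prkar1b and Pkig had the fewest counts, 20 to 58 and 57 to 227 per library, and the part of depth in their spread was not tested.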
